A study of Mus musculus with 4 samples.

Results

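Chromatin accessibility was examined at 6 transcription factor genes of the effector programme of CD8+ T cells, Prdm1, Id2, Zeb2, Bhlhe40, Stat4 and Hif1a, out of 21631 protein-coding genes. The genes come from a given list, selected on the peaks that these same libraries showed near them, so their numbers of regions are a description and carry no test. Each locus spanned the gene body and a further 20 kb to the left and to the right, in the mm10 build. It was searched for peaks of 4 ATAC-seq libraries, in which a transposase, Tn5, tags open DNA with sequencing adapters. The cells were CD8+ T cells of Balb/c mice, which the series title describes as infiltrating a tumour.

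Each condition had 1 library, and the design text gives no replicates. The stimulated phenelzine cells received phenelzine, an inhibitor of monoamine oxidases and of LSD1, a histone demethylase, and were stimulated with PMA and ionomycin for 2 h. The stimulated untreated cells received the stimulation without phenelzine. The unstimulated phenelzine cells received phenelzine alone, and the unstimulated untreated cells neither agent. PMA activates protein kinase C and ionomycin raises calcium, so together they bypass the T cell receptor. The tumour, the age and number of the animals, the sorting of the cells and the dose, timing and route of phenelzine are not given in the labels.

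The 6 genes encode factors with roles in the effector programme of activated CD8+ T cells. Prdm1 encodes Blimp-1, a zinc-finger transcriptional repressor that promotes terminal effector differentiation, and Zeb2 a zinc-finger repressor that acts beside T-bet in the same cells. Id2 encodes a helix-loop-helix protein without a DNA-binding region that holds E proteins away from DNA, and Bhlhe40 a helix-loop-helix repressor that binds E-boxes. Stat4 transmits interleukin 12 signals, and Hif1a encodes the oxygen-regulated subunit of the hypoxia-inducible factor, which drives glycolysis.

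The loci of the 6 genes held 17 regions, made of 40 peaks, where a region is a stretch covered by overlapping peaks of any of the 4 lists. All lists together held 15237 regions. The stimulated phenelzine list had 12 regions in these loci, the stimulated untreated list 10, the unstimulated phenelzine list 12 and the unstimulated untreated list 6. The whole lists held 9285 regions in stimulated phenelzine, 10383 in stimulated untreated, 7893 in unstimulated phenelzine and 6491 in unstimulated untreated cells. Per 1000 regions of a list the 6 loci therefore took 1.29 in stimulated phenelzine, 0.963 in stimulated untreated, 1.52 in unstimulated phenelzine and 0.924 in unstimulated untreated cells. Every member had a region in at least 2 lists.

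**Figure D1:**
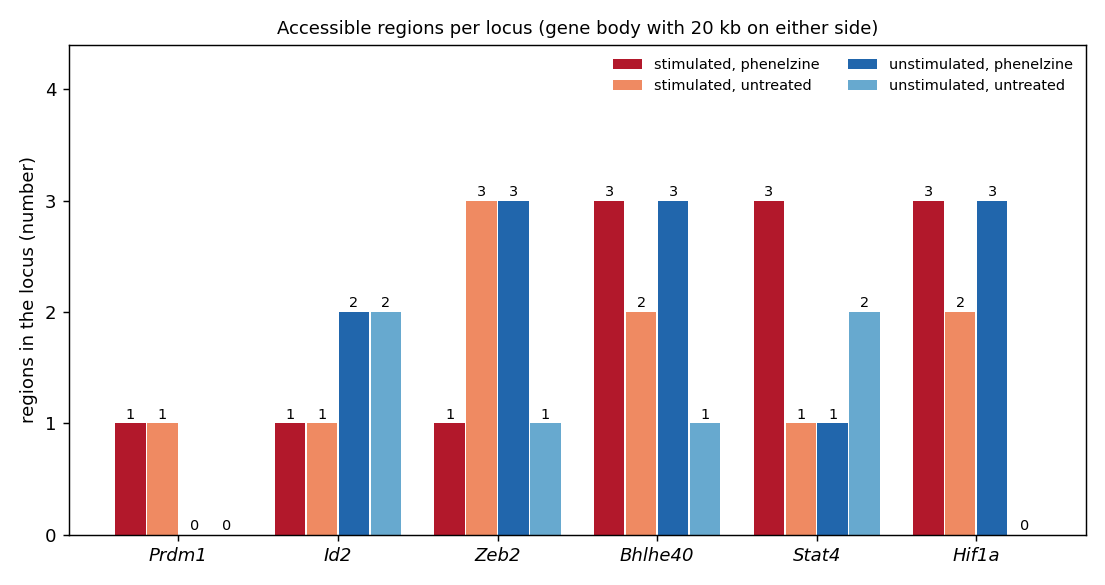
Number of regions in the locus of each gene (vertical axis) for the 4 libraries, 1 bar per library. Prdm1 has 1 region in each stimulated library and 0 in each unstimulated one, while Hif1a lacks a region only in unstimulated untreated cells.

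Among the genes with a RefSeq promoter window, a start site was open at Id2 and Hif1a. RefSeq promoter windows, which run from 250 bases before a start site to 50 bases from it, were at hand for 5 of the 6 genes, with 9 windows in all. The window of Id2 held a peak in all 4 lists and that of Hif1a in 3, all but unstimulated untreated. The single window of Prdm1, the 4 of Zeb2 and the 2 of Stat4 held none. Bhlhe40 was not matched to a window, so its start site was not looked up in this way. Over all 21045 windows of protein-coding genes, 15.5% held a peak in all 4 lists, 5.74% in 3 and 68.1% in none.

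The windows of Id2 and Hif1a are printed because they are the windows of the members that held a peak. Both come from RefSeq on GRCm38.p6 (mm10), 5′ to 3′ on the strand of the gene, and capitals mark the bases covered by the peak of every list that held the region. Id2 lies on the minus strand, at chr12:25096043-25096342. Hif1a lies on the plus strand, at chr12:73907617-73907916.
Id2: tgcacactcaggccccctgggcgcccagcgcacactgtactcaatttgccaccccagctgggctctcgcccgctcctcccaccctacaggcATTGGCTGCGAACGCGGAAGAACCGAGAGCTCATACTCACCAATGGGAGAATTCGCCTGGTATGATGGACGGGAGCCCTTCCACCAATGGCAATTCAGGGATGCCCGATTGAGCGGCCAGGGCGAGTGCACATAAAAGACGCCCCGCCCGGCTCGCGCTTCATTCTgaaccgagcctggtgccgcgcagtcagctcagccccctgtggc
Hif1a: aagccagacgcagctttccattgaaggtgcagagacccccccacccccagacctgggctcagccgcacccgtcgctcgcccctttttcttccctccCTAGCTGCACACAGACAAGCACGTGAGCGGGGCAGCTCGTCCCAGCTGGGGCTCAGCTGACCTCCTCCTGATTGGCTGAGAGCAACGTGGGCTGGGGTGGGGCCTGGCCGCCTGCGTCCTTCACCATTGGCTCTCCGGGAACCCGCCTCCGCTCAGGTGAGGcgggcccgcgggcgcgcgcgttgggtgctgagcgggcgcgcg
The shared core was 166 bp long at Id2, running from base −159 to base 6 around the start site, which is base 0. At Hif1a it was 162 bp long and ran from −154 to 7. In both genes the bases shared by the lists that held the region, 4 at Id2 and 3 at Hif1a, thus ended just past the start site.

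Motifs were searched in these windows on either strand, and a match is a description of letters only. The E-box CACGTG, which Bhlhe40 binds, stood once in the Hif1a window, at −135, and in 7.91% of all windows. ACGTG, the core of the hypoxia response element bound by the Hif1a product itself, stood there at −135 and −134, inside that palindromic E-box, and again at −70. It was present in 21.1% of all windows. CACCTG, the E-box bound by Zeb2, stood at −1 of Hif1a and in 19.9% of windows. None of these 3, nor the STAT motif TTCNNNGAA or the AP-1 motif TGANTCA, stood in the Id2 window. The STAT and AP-1 motifs, in 7.76% and 7.04% of windows, were missing from the Hif1a window as well. CCAAT, a box common in promoters, was searched only after the sequences had been read. It stood at −159, −120 and −76 of Id2 and at −84 and −29 of Hif1a, all within the capitals, and in 38.5% of all windows.

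The windows also differed in CpG content, a property that marks broadly open promoters. The Id2 window held 21 CpG and the Hif1a window 25, beside a median of 24 in the 3269 windows open in all lists. The Prdm1 window, in which no list had a peak, held 20, so it was close to them in CpG. The 4 Zeb2 windows, 2 of which overlap almost fully, held between 8 and 19. The Stat4 windows held 2 and 4, beside a median of 6 in the 14328 windows without a peak.

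**Figure D2:**
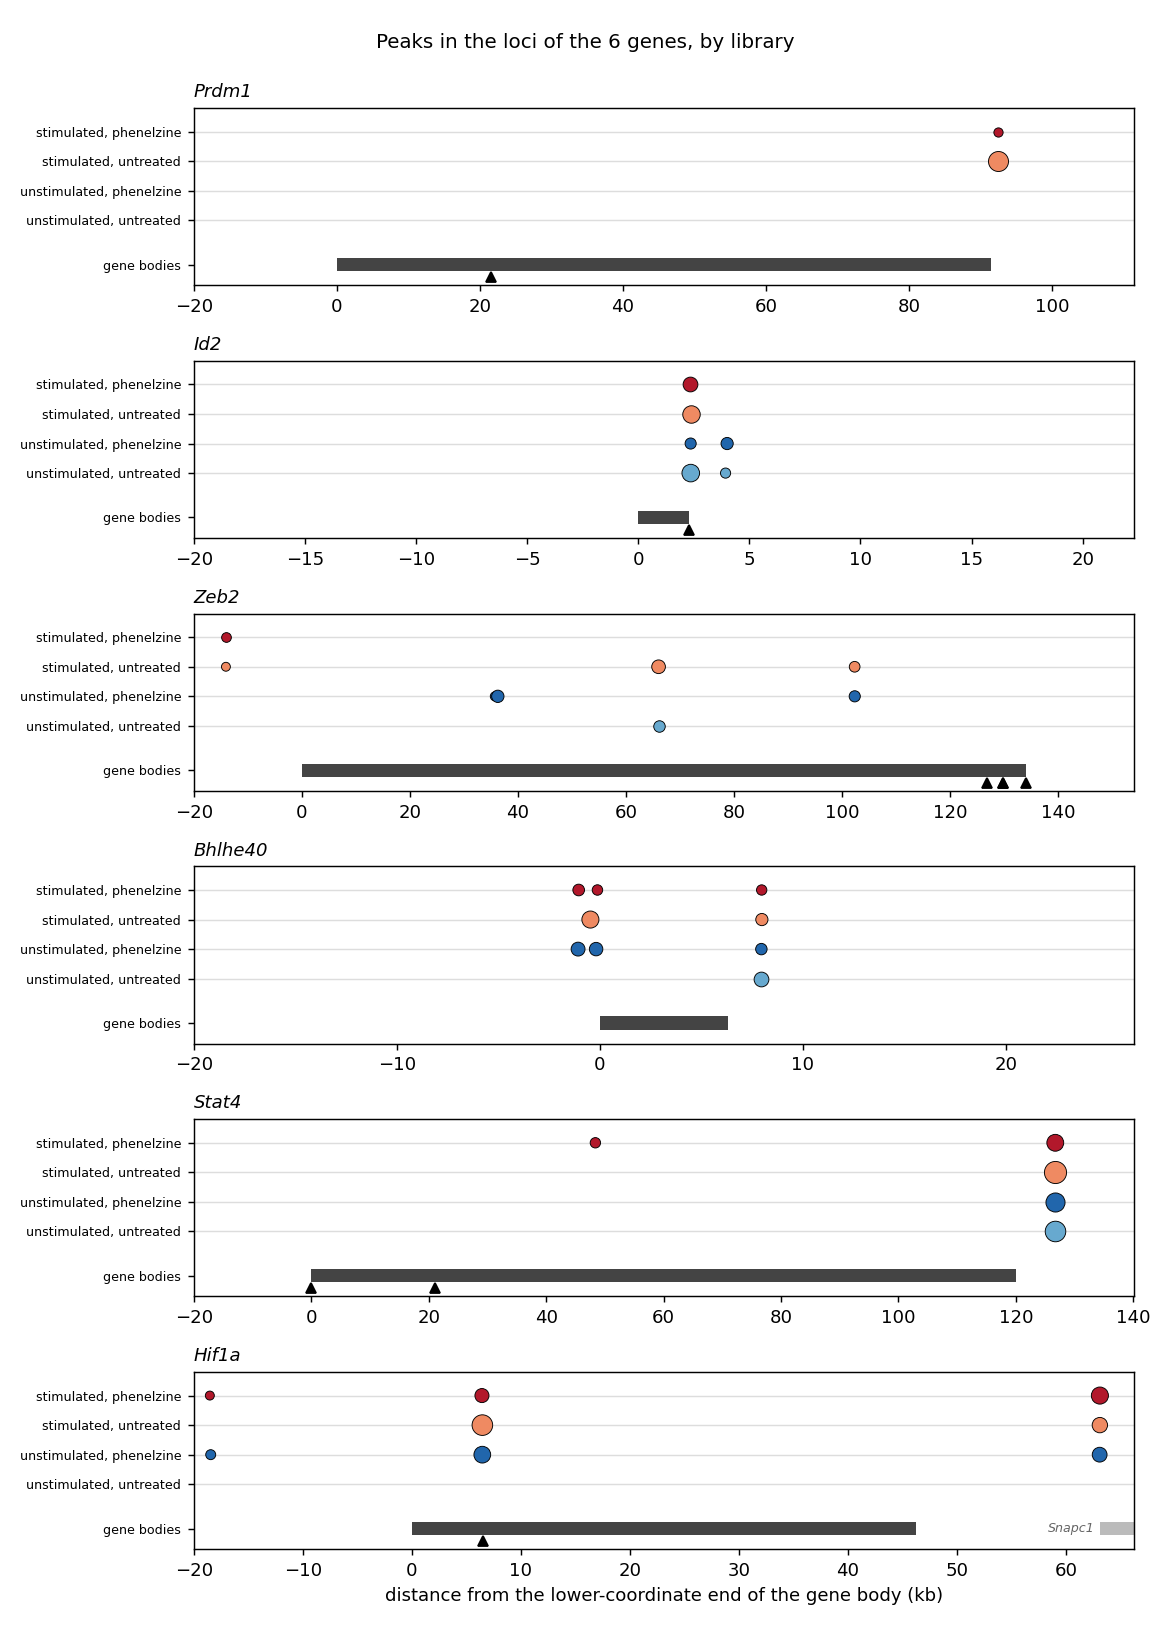
Position of the peaks of 16 of the 17 regions, in kb from the lower-coordinate end of the gene body, with a row per library. Point area grows with −log10 q, dark bars are the bodies of the genes, the grey bar that of the neighbour Snapc1, and triangles the RefSeq start sites. Peaks sit on a marked start site at Id2 and Hif1a, and the strongest peaks of the Stat4 locus lie above the upper end of its body. No start site is marked for Bhlhe40.

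Prdm1 had a region in stimulated cells alone. It lay at chr10:44529499-44529617, 941 bp beyond the upper end of the gene body, in no annotated gene. That end is the far 5′ limit of the gene, which lies on the minus strand, and the RefSeq start with a promoter window was 70751 bp away. In stimulated phenelzine cells the peak was 77 bp wide, with a fold enrichment of 4.03 over the local background of the library and −log10 q 1.46. In stimulated untreated cells it was 99 bp wide, with a fold of 7.16 and −log10 q 6.82. Neither unstimulated list had a peak in the locus. The fold and q are the authors' values for each peak and rank it only within its own list: the first peak exceeded 7.79% of its list in −log10 q and the second 89.9%. The same place was thus among the weakest calls with phenelzine and among the stronger ones without it.

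Id2 had the region at its promoter in every list. Its −log10 q was 3.72 in stimulated phenelzine, 5.19 in stimulated untreated, 2.11 in unstimulated phenelzine and 5.28 in unstimulated untreated cells. The share of the same list with a lower −log10 q was 69.3% in stimulated phenelzine, 79.95% in stimulated untreated, 34.0% in unstimulated phenelzine and 85.8% in unstimulated untreated cells. The promoter thus stood above the middle of every list but the unstimulated phenelzine one. The second region, at chr12:25097652-25097833, lay 1560 bp upstream of the start site and in no annotated gene. It was held by unstimulated phenelzine cells with −log10 q 2.53 and by unstimulated untreated cells with 1.75, and by neither stimulated list. The peaks of the 2 lists shared 41 bp there.

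Zeb2 had 5 regions, the most of the 6 genes, over a body of 133931 bp, and none was held by more than 2 lists. The region 13993 bp below the lower end of the gene, at chr2:44969415-44969519, was in both stimulated lists, with −log10 q 1.61 in stimulated phenelzine and 1.35 in stimulated untreated cells. These were weak calls, above 15.2% of the stimulated phenelzine list and 3.72% of the stimulated untreated list. Within the body, chr2:45049476-45049586 was held by both untreated lists, with −log10 q 3.18 in stimulated and 2.26 in unstimulated cells. A further region, chr2:45085699-45085918, was held by stimulated untreated cells with 1.95 and by unstimulated phenelzine cells with 2.12. The unstimulated phenelzine list alone held chr2:45019183-45019252 with 1.40 and chr2:45019729-45019811 with 2.60. All 4 body regions lay at least 24359 bp from any Zeb2 start site with a window. The gene table used here has no exons, so exonic and intronic positions are not separated.

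Bhlhe40, a short gene of 6297 bp, had 3 regions. A region at chr6:108668499-108668694, lying 1574 bp above the upper end of the gene, was the one held by all 4 lists. Its −log10 q was 1.83 in stimulated phenelzine, 2.54 in stimulated untreated, 2.24 in unstimulated phenelzine and 3.71 in unstimulated untreated cells. In unstimulated untreated cells it lay above 66.1% of the list.

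A region at the other end of Bhlhe40 was held by all lists except the unstimulated untreated one. This region, chr6:108659804-108660668, also overlapped the lncRNA gene 0610040F04Rik. Its −log10 q was 1.87 in stimulated phenelzine, 4.95 in stimulated untreated and 3.09 in unstimulated phenelzine cells. Only the stimulated phenelzine peak, which ended at 108660668, reached into the body, which starts at 108660629. The other peaks of the region ended below the body, at 108660524 in stimulated untreated and 108660526 in unstimulated phenelzine cells. As Bhlhe40 had no matched promoter window, this region was not scored as a promoter region. The stimulated untreated peak was the widest of the 40, at 721 bp. Just below it, chr6:108659518-108659654 was held by stimulated phenelzine cells with 2.32 and by unstimulated phenelzine cells with 3.28. The wide peak of stimulated untreated cells ended close to this region without touching it. With peaks up to 500 bp apart joined, Bhlhe40 had 2 regions in stimulated phenelzine and 2 in stimulated untreated cells, a difference of 0 in place of 1.

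The Stat4 locus was open mainly outside Stat4. Over all lists and the 17 regions, the highest single −log10 q was 8.35, in stimulated untreated cells at chr1:52113694-52113956. This region was held by all 4 lists, with 4.84 in stimulated phenelzine, 6.22 in unstimulated phenelzine and 7.21 in unstimulated untreated cells. The share of the same list below it was 82.8% in stimulated phenelzine, 94.7% in stimulated untreated, 92.1% in unstimulated phenelzine and 94.98% in unstimulated untreated cells, so it was among the stronger calls of every library. This region overlapped the lncRNA gene Gm31812 and its promoter window, and it lay 6505 bp from the body of Stat4. Within Stat4 itself the lists held only chr1:52035468-52035536, in stimulated phenelzine cells, with −log10 q 1.84. Counting regions nearer to Stat4 than to any other protein-coding gene, a choice made after seeing the data, left 1 in stimulated phenelzine cells and 0 in each other condition.

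Hif1a had no region in unstimulated untreated cells and 2 or 3 in the others. The promoter region, chr12:73907486-73908033, had −log10 q 3.37 in stimulated phenelzine, 7.23 in stimulated untreated and 4.77 in unstimulated phenelzine cells. The share of the same list below it was 64.1% in stimulated phenelzine, 91.5% in stimulated untreated and 82.9% in unstimulated phenelzine cells. The stimulated phenelzine peak was 548 bp wide, against 169 bp in stimulated untreated and 166 bp in unstimulated phenelzine cells. It was thus the widest of the 3, around the same core.

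The remaining regions of the Hif1a locus lay at its edges. The one at chr12:73964370-73964535 overlapped the body and the promoter window of the neighbour Snapc1, which encodes a subunit of the small nuclear RNA activating complex. It had −log10 q 4.97 in stimulated phenelzine, 4.02 in stimulated untreated and 3.73 in unstimulated phenelzine cells. The other, chr12:73882757-73882989, lay 18335 bp below the body and was weak, with 1.38 in stimulated phenelzine and 1.70 in unstimulated phenelzine cells. It was the farthest region inside any of the 6 loci. Just outside the 20 kb limit, stimulated untreated cells had a region 20634 bp from Hif1a, with 1.20, and another 21687 bp from Zeb2, with 1.96. Leaving out the Snapc1 region, Hif1a had 2 regions in stimulated phenelzine, 1 in stimulated untreated, 2 in unstimulated phenelzine and 0 in unstimulated untreated cells.

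**Figure D3:**
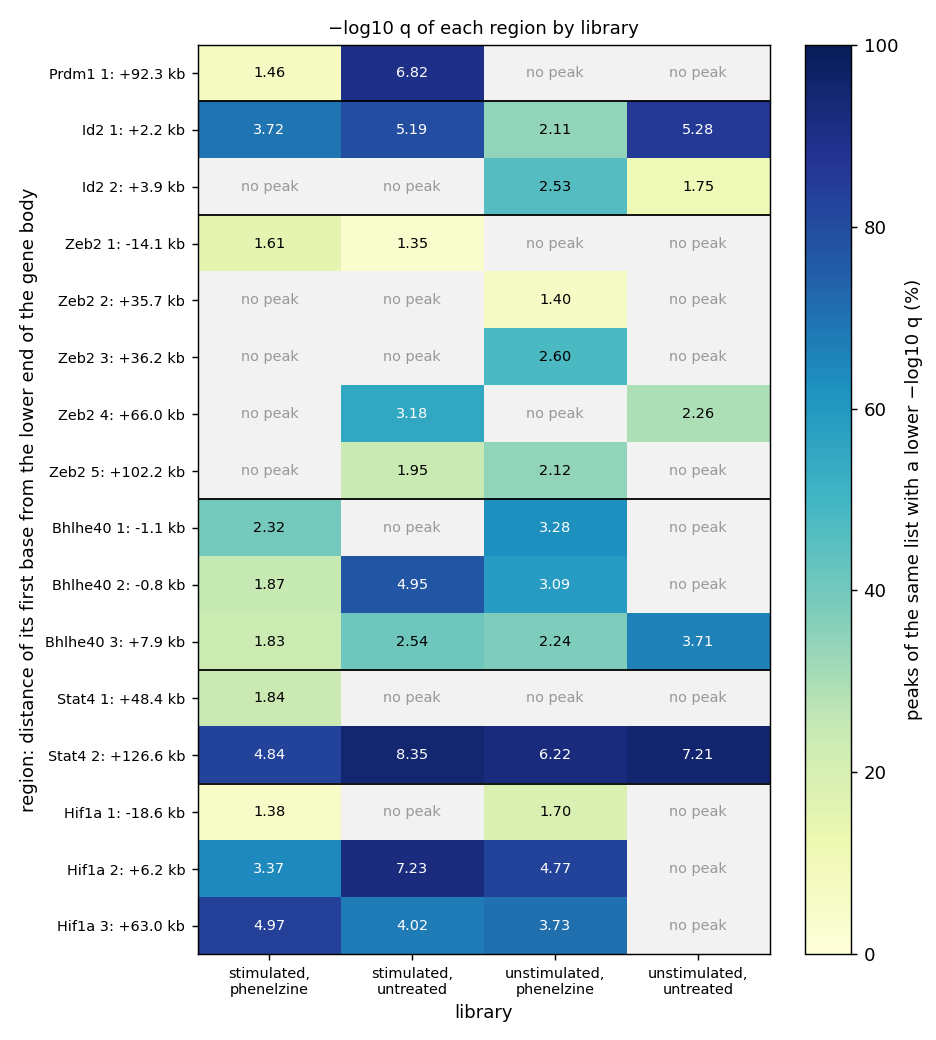
Each of 16 of the 17 regions (rows, with the distance from the lower end of the gene body) in each library (columns), with the deposited −log10 q printed and the colour giving the share of peaks of the same list that lie below it. Of these, 3 are present in all columns, namely the Id2 promoter, the region 1574 bp above Bhlhe40 and the region 6505 bp above Stat4.

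Taking the 17 regions together, 3 were held by all 4 lists, 3 by 3 lists, 8 by 2 and 3 by 1. The share held by 2 lists was 47.1% (exact 95% interval 23.0 to 72.2, for counting error only), beside 16.1% of all 15237 regions. The share held by 1 list was 17.6% (3.80 to 43.4), beside 43.6% of all regions. The regions cluster in 6 loci of genes selected on these same lists, so the intervals are no test against the shares of all regions. The 3 regions of a single list were the pair in the Zeb2 body and the one in the Stat4 body, each below the median −log10 q of its list. Of the 17 regions 8 touched the body of the member, 3 lay below it and 6 above it. A different protein-coding gene was nearer for 3 of the 17.

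The peaks of the 6 genes were of middling strength. Of the 40 peaks 21 lay above the median −log10 q of their own list, and fold enrichments ran between 3.85 and 7.73. In stimulated phenelzine cells 7 of 12 peaks were below the list median of 2.68, in stimulated untreated cells 3 of 10 below 2.93, in unstimulated phenelzine cells 7 of 12 below 2.69 and in unstimulated untreated cells 2 of 6 below 2.95. The lists differ in length, so these counts show no difference between conditions. The lowest −log10 q of any peak in the 4 lists was between 1.00 and 1.02, so a region missing from a list was one not called at that limit.

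**Figure D4:**
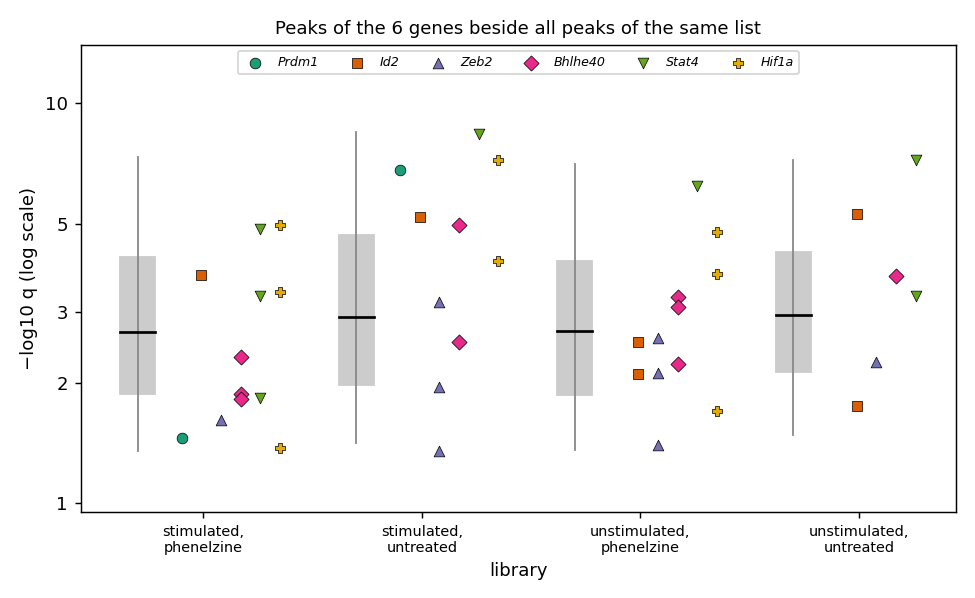
Deposited −log10 q (logarithmic axis) of the 40 peaks of the 6 genes in each library, beside all peaks of the same list: grey line from the 5th to the 95th percentile, grey box from the 25th to the 75th, black bar the median. Most points lie within the grey line, and in stimulated phenelzine cells 7 of 12 are below the black bar.

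Coverage by DNA fragments was low at each peak. Total reads are not in the lists, but a fold and a p-value together imply a background coverage, which came to 0.489 in stimulated phenelzine, 0.493 in stimulated untreated, 0.471 in unstimulated phenelzine and 0.392 in unstimulated untreated cells. If that background held at every locus, the 40 peaks had a mean coverage between 4.75 and 10.5 fragments per base, with a median of 6.30, so a wide peak holds more fragments than this. The −log10 p recomputed from it was within 0.1 of the deposited value for 22 peaks and differed by up to 0.743, so the estimate is approximate. The unstimulated untreated library had both the lowest background and the shortest list, and this moves with its 6 regions. The part of depth in the results was not tested.

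Stimulation in phenelzine-treated cells went with more regions at Prdm1 and Stat4 and with fewer at Id2 and Zeb2. In the stimulated phenelzine list, Prdm1 (1 region against 0) and Stat4 (3 against 1) had more regions than in the unstimulated phenelzine list. Id2 (1 against 2) and Zeb2 (1 against 3) had fewer, and Bhlhe40 and Hif1a had 3 in both. So 2 members had more and 2 fewer, where 27.5% and 16.4% of the 12572 genes with a region in any list did, or 16.0% and 9.56% of all protein-coding genes. The median difference was 0 regions over the members and 0 over all genes. These shares are not matched for the number of regions per gene, and a gene with more regions can differ more easily in either direction. Counting a region once per list that held it, Id2 had 6. That number was reached by 17.8% of all protein-coding genes, and the 9 of Bhlhe40 by 5.98%. Zeb2, Stat4 and Hif1a lay between these, while Prdm1 had 2. At Bhlhe40 and Hif1a every region was shared by the 2 lists, while at Zeb2 none was. The balance depended on the peaks admitted, with 2 members having more and 1 fewer at −log10 q of at least 3, and 1 more and 4 fewer with the same number of peaks from every list. With only peaks of −log10 q of at least 3, Id2 turned round to a difference of 1, as its promoter peak in unstimulated phenelzine cells was below that limit.

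Stimulation in untreated cells went with more regions at 4 of the 6 members. In the stimulated untreated list, Zeb2 (3 regions against 1) and Hif1a (2 against 0) had more, as did Prdm1 (1 against 0) and Bhlhe40 (2 against 1). Id2 (1 against 2) and Stat4 (1 against 2) had fewer than in the unstimulated untreated list. So 4 members had more and 2 fewer, where 40.6% and 7.79% of genes with a region did, or 23.6% and 4.53% of all protein-coding genes. The median difference was 1 region over the members and 0 over all genes. The loci held 6 regions in the stimulated list alone, 2 in the unstimulated list alone and 4 in both. The number with more was 3 of 6 at −log10 q of at least 3, with the gene body alone and with the same number of peaks from every list. Without regions nearer to other genes 1 member had fewer.

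Phenelzine in stimulated cells went with more regions at Stat4 (3 in the phenelzine list against 1 in the untreated list), Bhlhe40 (3 against 2) and Hif1a (3 against 2). Zeb2 had 1 against 3, losing both regions of its body, while Prdm1 and Id2 had 1 in both. So 3 members had more and 1 fewer, where 17.8% and 28.0% of genes with a region did, or 10.4% and 16.2% of all protein-coding genes. The median difference was 0.5 regions over the members and 0 over all genes. This count turned with the strength of the peaks. With −log10 q of at least 3, and likewise with the same number of peaks from every list, 1 member had more and 3 had fewer. Bhlhe40 alone changed sign, to a difference of −1.

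Phenelzine in unstimulated cells went with more regions at Hif1a (3 in the phenelzine list against 0 in the untreated list), Bhlhe40 (3 against 1) and Zeb2 (3 against 1). Stat4 had 1 against 2, while Id2 had 2 in both and Prdm1 0 in both. So 3 members had more and 1 fewer, where 27.0% and 14.7% of genes with a region did, or 15.7% and 8.54% of all protein-coding genes. The median difference was 1 region over the members and 0 over all genes. Of the regions in these loci 8 were in the phenelzine list alone, 2 in the untreated list alone and 4 in both. At Zeb2 no region was shared. With −log10 q of at least 3, 2 members had more and 2 fewer, and with regions of at least 2 lists the difference at Zeb2 was 0. The 4 comparisons share libraries, so they are not independent of each other. In none of them are the shares of other genes matched to the members in number of regions, so nothing is read from the contrast.

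Genes with the same numbers of regions in all 4 lists were looked up for each member, with ties settled by the highest −log10 q in each list. The pattern of Prdm1 was common, being that of 403 of 21630 other genes (1.86%), with Zfp24 and Pdcd6ip the closest. The pattern of Id2 was shared by 34 genes, led by Napepld and Gnl1, and that of Bhlhe40 by 19, led by Gse1 and Pitpna. Rarer were the patterns of Zeb2, with 7 genes led by Cep128 and Gm42166, and of Stat4, with 6 led by Ppil4 and Ankrd11. Hif1a shared its pattern with 5 genes, led by Adk and Dnajb4. The comparison rests on 4 values per gene.

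Further genes of CD8+ T cell fate were counted in the same way, first those of the effector side. Of 10 such genes, 7 had none in any list, and 3, or 30%, had one, beside 58.1% of all protein-coding genes. With 10 genes chosen by role, nothing is read from this share. Those without a region were Tbx21 and Eomes, which encode the T-box factors of effector and memory cells, and Runx3, Irf4, Batf, Batf3 and Tox. Rbpj, which encodes the DNA-binding factor of the Notch pathway, had 4 regions in stimulated phenelzine, 3 in stimulated untreated, 5 in unstimulated phenelzine and 2 in unstimulated untreated cells. The counts with more and fewer regions were 0 and 2 for stimulation with phenelzine, and 1 and 1 for stimulation without it. For phenelzine they were 1 and 0 in stimulated cells, and 2 and 1 in unstimulated cells. Of all protein-coding genes, 16.0% had more and 9.56% fewer for stimulation with phenelzine, and 23.6% and 4.53% for stimulation without it. For phenelzine these shares were 10.4% and 16.2% in stimulated cells, and 15.7% and 8.54% in unstimulated cells.

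On the naive and memory side 7 of 10 genes had a region, a share of 70% that is near the 58.1% of all protein-coding genes, and Lef1, Myb and Satb1 had none. Bach2, a repressor gene of resting lymphocytes, had 1 region in stimulated phenelzine, 4 in stimulated untreated, 0 in unstimulated phenelzine and 3 in unstimulated untreated cells. Klf2, a quiescence factor gene, had 2 in stimulated phenelzine, 2 in stimulated untreated, 1 in unstimulated phenelzine and 3 in unstimulated untreated cells. Foxo1, whose product sustains the expression of Tcf7 and Klf2, had 1 in stimulated phenelzine, 1 in stimulated untreated, 2 in unstimulated phenelzine and 0 in unstimulated untreated cells. Stimulation with phenelzine gave 3 genes more and 1 fewer regions, and stimulation without it 4 more and 2 fewer. Phenelzine gave 1 more and 2 fewer in stimulated cells, and 2 more and 3 fewer in unstimulated cells. These counts of 10 genes are to be set beside the same shares of all protein-coding genes as for the effector side. In each comparison the median difference was 0 for both of these lists.

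The relatives and partners of Id2, Hif1a and Stat4 on the lists all had a region in some library, beside 58.1% of all protein-coding genes. Their counts with more and fewer regions are descriptions of 5 or 6 genes, to be set beside the shares of all genes given for each comparison. Among the 5 E protein and Id genes, Tcf12 had 1 in stimulated phenelzine, 2 in stimulated untreated, 1 in unstimulated phenelzine and 0 in unstimulated untreated cells, while Id1 had 1 in stimulated phenelzine, 2 in stimulated untreated, 0 in unstimulated phenelzine and 2 in unstimulated untreated cells. Stimulation gave 2 more and 0 fewer with phenelzine, and 3 more and 0 fewer without it. Phenelzine gave 1 more and 2 fewer in stimulated cells, and 3 more and 1 fewer in unstimulated cells. For this list the median difference was 1 region in both comparisons with unstimulated untreated cells and 0 in the others.

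The 6 genes of the hypoxia pathway include Egln1, Egln2 and Egln3, which encode the prolyl hydroxylases that mark the Hif1a protein for decay. Egln1 had 1 in stimulated phenelzine, 3 in stimulated untreated, 1 in unstimulated phenelzine and 1 in unstimulated untreated cells. Egln2 had 2 in stimulated phenelzine, 3 in stimulated untreated, 3 in unstimulated phenelzine and 1 in unstimulated untreated cells, and Egln3 1 in stimulated phenelzine, 3 in stimulated untreated, 2 in unstimulated phenelzine and 2 in unstimulated untreated cells. So stimulated untreated cells had as many regions as any other library, or more, at each of these 3 genes. The counts of these genes are printed because they differed by at least 2 regions in some comparison. The stimulated untreated list is also the longest, with 10383 regions, and the part of list length was not tested. Over the list, stimulation gave 0 more and 2 fewer with phenelzine, and 5 more and 0 fewer without it, where 40.6% and 7.79% of genes with a region did. Phenelzine gave 0 more and 4 fewer in stimulated cells, where 17.8% and 28.0% did, and 2 more and 0 fewer in unstimulated cells. Its median difference was 1 region for stimulation in untreated cells, −1 for phenelzine in stimulated cells and 0 otherwise.

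Among 5 genes of the interleukin 12 pathway, stimulation gave 3 more and 0 fewer with phenelzine, and 2 more and 0 fewer without it. Phenelzine gave 2 more and 0 fewer in stimulated cells, and 1 more and 1 fewer in unstimulated cells. Here the median difference was 1 region for stimulation with phenelzine and 0 otherwise. Jak2 is a kinase gene of this pathway. It had 2 regions in stimulated phenelzine, 1 in stimulated untreated, 0 in unstimulated phenelzine and 1 in unstimulated untreated cells.

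The label of the cells was set beside marker genes. Of 10 T cell and CD8 lineage genes 6 had a region in any list, a share of 60% beside 58.1% of all protein-coding genes, so these lists do not set the T cell genes apart. Cd8a, Cd8b1, Cd2 and Zap70 had none. Summed over a list, the T cell genes had between 3 and 5 distinct regions per library, with regions shared by neighbouring genes such as Cd3d and Cd3g counted once, the 6 B cell genes between 2 and 5 and the 7 myeloid genes between 6 and 10. The 3 NK cell genes had at most 1, the 3 CD4 and regulatory T cell genes between 2 and 4, the 4 epithelial genes at most 2 and the 5 stromal and endothelial genes at most 1. A region in any list was found at 3 of the B cell, 5 of the myeloid, 1 of the NK cell, 3 of the CD4 and regulatory T cell, 2 of the epithelial and 1 of the stromal and endothelial genes, lists too short to set against the 58.1%. Among those with none were Pax5, Csf1r, Ncr1, Epcam and Col1a1. A region near a gene does not show that it is expressed, and the part of other cells in the results was not tested.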

How the data were processed

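ATAC-seq libraries of CD8+ T cells, 1 per condition, were compared. The submitters' processing notes name mm10 and the tools MACS2, HOMER, Picard, Bowtie2 2.2.5 and Trimmomatic 0.33, with no parameters. The authors deposited a list of broad peaks per library. The peak names carry the word less and the number 120, which the labels do not explain. If it is a limit on fragment length in bp, the peaks and the coverage derived from them describe short fragments only. The score deposited for a peak was 10 times −log10 q, rounded down. The deposited fold enrichment is a ratio of peak over local background, and the p-value and q-value of each peak were deposited as −log10.

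Peaks on chromosomes 1 to 19 and X were merged wherever they overlapped by at least 1 bp, with Python 3.11.15, pandas 2.3.3 and numpy 2.4.6. Coordinates count from 1. Genes and promoter windows came from RefSeq tables of GRCm38.p6. All genes of the lists were matched, and 1 gene of the interleukin 12 list is not reported here, nor is 1 region of the Stat4 locus beyond its place in the counts. The commonest combination of fold and −log10 p in a list gave its background coverage, with fold taken as (coverage + 1) / (background + 1) and p from the Poisson distribution (SciPy 1.17.1). Merging and this step were tested on simulated data. With 1 library per condition no test was made, and intervals cover counting error only.

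The members and gene lists were chosen with earlier results of these data known. Named beside the members were the 2 genes most alike, and list genes that differed by at least 2 regions or had none. Alternatives were a stricter q, other overlaps, other locus sizes, equal lists and regions of at least 2 lists.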

Additional observations from a re-analysis of the deposited data

Results flagged for a closer look

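Zeb2 moved in opposite directions in the 2 arms of the study. Stimulation went with a difference of −2 regions in phenelzine-treated cells and 2 in untreated cells, and phenelzine likewise with −2 in stimulated and 2 in unstimulated cells. The difference between the arms was −4 regions either way, since it is formed from the same 4 libraries. The opposite directions were lost with −log10 q of at least 3, where stimulation gave 0 in phenelzine-treated and 1 in untreated cells and phenelzine −1 in stimulated and 0 in unstimulated cells. They were lost as well with regions of at least 2 lists, where stimulation gave 0 in phenelzine-treated and 2 in untreated cells and phenelzine −2 in stimulated and 0 in unstimulated cells. With the same number of peaks from every list, stimulation gave −2 in phenelzine-treated and 0 in untreated cells, while phenelzine still gave −1 in stimulated and 1 in unstimulated cells. With 1 library per condition this difference was not tested, and of the 8 peaks behind it only that of stimulated untreated cells at chr2:45049476-45049586, with −log10 q 3.18, was above the median of its list.

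Stat4 moved in opposite directions as well, with 2 regions more after stimulation in phenelzine-treated cells and −1 in untreated cells, a difference of 3. Phenelzine gave the same values, 2 in stimulated and −1 in unstimulated cells, and the same difference of 3, which was not tested either. Of the regions behind it, that in the Stat4 body had −log10 q 1.84. With the gene body alone, or without regions nearer to another gene, the differences were 1 for stimulation in phenelzine-treated cells and 0 in untreated cells, and 1 for phenelzine in stimulated and 0 in unstimulated cells, so the directions were no longer opposite.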

How the results depend on the processing

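Each condition had 1 library, so no spread between replicates is known, and no paired analysis was possible because each condition had 1 library. Counts of up to 6 genes move by large ratios when 1 gene changes side, and peaks of few fragments leave the absence of a region uncertain.

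With peaks joined at an overlap of at least 50 bp, at distances up to 500 bp, or with loci of 50 kb on either side, the counts of genes with more or fewer regions stayed within 1.5 times in all 4 comparisons. With −log10 q of at least 3, fewer regions were found at 1 gene for stimulation in phenelzine-treated cells, 1 for stimulation in untreated cells and 2 for phenelzine in unstimulated cells. For phenelzine in stimulated cells 1 gene had more and 3 fewer. At that limit the difference at Id2 for stimulation in phenelzine-treated cells turned to 1, and that at Bhlhe40 for phenelzine in stimulated cells to −1. With 6519 peaks from every list, stimulation in phenelzine-treated cells gave 1 gene more and 4 fewer, phenelzine in stimulated cells 1 more and 3 fewer, and Bhlhe40 again −1. With the gene body alone, stimulation in phenelzine-treated cells gave 1 more and 1 fewer, stimulation in untreated cells 0 fewer, phenelzine in stimulated cells 1 more and phenelzine in unstimulated cells 0 fewer. With regions of at least 2 lists, stimulation in phenelzine-treated cells gave 1 gene with fewer. Leaving out regions nearer to another gene, chosen after seeing the data, gave 1 gene with fewer for stimulation in untreated cells and 0 for phenelzine in unstimulated cells. The cause of these shifts was not tested, apart from that set by each choice itself. Of the 64 counts of genes under the alternatives 17 moved past 1.5 times.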

Other observations

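Promoter windows of the further fate factors and partners were looked up as well, with no test. Of the 35 genes on these lists 30 had a RefSeq window, and 15 of these had no promoter peak in any list, beside 68.1% of all windows with none. A gene counted as having a peak if any of its windows held it. The shares of all windows are of single windows, so they are not directly comparable with the counts of genes. A peak in all 4 lists was found at 7, beside 15.5% of all windows, namely Tcf3, an E protein gene, Arnt, which encodes the partner of Hif1a, Hif1an, an inhibitor of it, the kinase gene Tyk2, Stat3, Rbpj and Klf2. At Id3, the relative of Id2, and at Foxo1 the promoter was held by 3 lists, all but unstimulated untreated, as at Hif1a. The Id3 calls were weak, with −log10 q 1.55 in stimulated phenelzine, 1.85 in stimulated untreated and 1.09 in unstimulated phenelzine cells. At the Hif1a promoter these values were 3.37, 7.23 and 4.77. Jak2 lacked a promoter peak in unstimulated phenelzine and Bcl6 in stimulated phenelzine cells. Egln2 had a promoter peak in stimulated untreated and unstimulated phenelzine cells, Egln1 and Egln3 in stimulated untreated cells alone, and Tcf12 in stimulated phenelzine cells alone.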
